A study of Mus musculus with 20 samples.

Results

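The replication-dependent histone genes of the mouse are a family of near-identical copies, most of them in clusters on chromosome 13 and chromosome 3. They were taken here by symbol, as every row whose name begins with Hist1h, Hist2h, Hist3h or Hist4h and does not end in ps. That gave 69 genes of the 55421 transcripts in each deposited table. By class there were 6 linker histone H1 genes, 20 H2A, 18 H2B, 12 H3 and 13 H4 genes. GENCODE vM21 lists 2 of the H2A members as pseudogenes, Hist1h2al as processed and Hist1h2aj as unprocessed, and the other 67 as protein coding. By position 56 lay on chromosome 13, 10 on chromosome 3, 2 on chromosome 11 and 1 on chromosome 6.

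Total RNA was sequenced in 20 libraries, 10 from mouse embryonic stem cells (ESC, line KY1.1) and 10 from induced presomitic mesoderm (iPSM), colonies differentiated from E14TG2a ESC that carry a luciferase reporter under the Hes7 promoter. Doxycycline (dox) drives Clock with Bmal1 through tetO sequences in clones 1 and 7 of ESC and clones 12 and 20 of iPSM, and Clock with Bmal1DN (ClockBmal1DN) in clones 5 and 6 of ESC and clones 7 and 19 of iPSM. Each clone gave 1 untreated and 1 dox library, as did 1 line per cell type labelled as control. Dox was 500 ng/mL for 6 hours in ESC and 1000 ng/mL for 2 hours in iPSM. Each line is a single clone, and the clones are the replicates (2 per genotype and state). P-values measure the spread between clones within a group, with the spread shared over all groups of a fit. The untreated and dox libraries of a clone entered the main fit as separate libraries, so its p-values leave out their pairing. Cell type and parental line cannot be told apart, since all ESC libraries are KY1.1 and all iPSM libraries are E14TG2a. ESC markers fell in iPSM in 7 of 7 cases and presomitic mesoderm markers rose in 6 of 7. Markers of fibroblast feeder cells summed to 54.4 to 488 CPM (counts scaled to the library total) in ESC and 16.02 to 27.4 CPM in iPSM, and their part in the results was not tested. Library totals ran from 38.2 to 57.3 M counts, and the untreated iPSM control library stood apart, with reads over 69.4% of features.

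Replication-dependent histones package newly made DNA, and their mRNAs accumulate in S phase. These mRNAs are the known exception among coding transcripts in ending without a poly(A) tail. Their 3′ end is a conserved stem-loop that SLBP binds, and cleavage after it needs the U7 snRNP with LSM10 and LSM11. NPAT drives transcription of the clusters. Some members also make polyadenylated forms from sites further downstream. A library of total RNA, as here, does not require a tail. In bulk RNA, fewer cells in S phase and less histone RNA per cell cannot be told apart.

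The stem-loop is the sequence that the family shares beyond its proteins, so it is shown first. The pattern searched, on the transcript strand, was GG, any 2 bases, CTT, any base, T, any base, AG, any 2 bases and CC. It was found in the GENCODE vM21 transcript of 46 of 69 members (66.7%), and in 113 of 54821 other transcripts (0.206%). The remaining 23 models hold no match, and no match says only that these letters are not in the annotated transcript. Of the 46, 26 carry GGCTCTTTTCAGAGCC, which was found in H1, H2A, H2B and H3 genes and in no H4 gene. Another 7, all H4, carry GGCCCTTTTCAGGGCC. The stem-loop of 4 genes described below is given with 5 bases on each side, in the RNA's direction and in DNA letters, with the stem-loop in capitals.
Hist1h2bm: acaaaGGCTCTTTTCAGAGCCactaa
Hist1h4c: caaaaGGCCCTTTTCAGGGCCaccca
Hist1h4j: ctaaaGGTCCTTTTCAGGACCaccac
Hist4h4: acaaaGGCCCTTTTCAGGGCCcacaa

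RefSeq promoter windows, from 250 bases before to 50 after the start site, were found for 61 of 69 members. Not found were Hist1h2bc, Hist1h1d, Hist1h3f, Hist2h2be, Hist1h3a, Hist1h2al, Hist1h2aj and Hist2h4. The motif CCAAT, searched on both strands, was in 85.2% of the 61 windows against 37.4% of all 32851 windows of the table. It was in 100% of the H1, H2A, H2B and H3 windows and in 25% of the 12 H4 windows. TATAAA was in 55.7% of the members' windows against 13.6% of all. The octamer ATGCAAAT was in 13 of 61 windows (21.3% against 1.74% of all), 7 of them H2A and 6 H2B. The canonical E-box CACGTG, the best known binding motif of CLOCK and BMAL1, was in 0 of 61 windows against 7.15% of all. Matches of different motifs can share end bases and were counted separately, and a match is a description, not a bound site. Windows of neighbouring genes on opposite strands can overlap, so the same site can count for both genes. The 250 bases before the start site are printed for the pair of abundant genes that fell furthest in iPSM and for the gene that rose furthest, in the gene's direction, with matches to the searched motifs in capitals. They lie in build GRCm38.p6 at chr13:21721794-21722043 (plus strand, Hist1h2bm), chr13:21753826-21754075 (plus strand, Hist1h2bn) and chr6:136804432-136804681 (minus strand, Hist4h4).
Hist1h2bm: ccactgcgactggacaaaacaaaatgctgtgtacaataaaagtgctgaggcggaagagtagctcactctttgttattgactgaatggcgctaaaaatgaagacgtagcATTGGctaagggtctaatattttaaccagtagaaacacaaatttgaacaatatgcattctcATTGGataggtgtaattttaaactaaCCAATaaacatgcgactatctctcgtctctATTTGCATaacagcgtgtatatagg
Hist1h2bn: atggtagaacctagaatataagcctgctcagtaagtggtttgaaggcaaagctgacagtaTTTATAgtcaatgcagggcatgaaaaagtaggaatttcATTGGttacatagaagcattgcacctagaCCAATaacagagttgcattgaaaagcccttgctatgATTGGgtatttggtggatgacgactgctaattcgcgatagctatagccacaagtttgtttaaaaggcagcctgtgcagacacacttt
Hist4h4: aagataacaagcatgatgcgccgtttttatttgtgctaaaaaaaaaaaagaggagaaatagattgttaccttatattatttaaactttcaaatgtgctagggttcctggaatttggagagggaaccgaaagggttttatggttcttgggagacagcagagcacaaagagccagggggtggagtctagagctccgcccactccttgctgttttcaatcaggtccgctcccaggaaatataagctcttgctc

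The window of Hist1h2bm holds 3 CCAAT matches and 1 octamer, and that of Hist1h2bn holds 3 CCAAT matches and 1 TATAAA. That of Hist4h4 holds none of the 4 motifs. The octamer of Hist1h2bm and the TATAAA of Hist1h2bn are matches on the opposite strand. Both windows reach the start site of a neighbour on that strand, Hist1h2aj and Hist1h2ak in turn. Their matches therefore cannot be assigned to either gene alone.

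The members spanned a wide range of levels. In RPKM, read counts scaled to gene body length and library total (means over 20 libraries), 41 members were at 100 or more and 13 were under 10. The highest was the H2B gene Hist2h2bb at 1641 RPKM (1252 to 2083), whose whole gene body of 381 bases lies inside another annotated gene, Gm42743, so its reads may belong to either. Next came the linker histone gene Hist1h1a at 1185 RPKM (782 to 1571) and the H4 genes Hist1h4h at 941 and Hist1h4k at 907. Among H2A genes Hist1h2ak led with 525 RPKM, and among H3 genes Hist1h3e led with 540. Genes known from testis were low: 6.21 RPKM for Hist1h1t, 17.2 for Hist1h2aa and 15.0 for Hist1h2ba. Hist2h2be, known for a polyadenylated form, was at 1.17 RPKM. RPKM divides by the gene body with introns, which lowers the values of Hist1h2be (a 37455-base body, 5.90 RPKM) and Hist1h2bc (26.3 RPKM).

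Copies of the family share long stretches. For each member, every stretch of 101 bases, the length of 1 read, was looked up in all annotated transcripts. Genes that overlap the member's own locus were not counted as other copies, so a stretch shared only with them counts as unique. The median member had 67.1% of its stretches to itself. Every stretch was unique in 9 members, under 10% were unique in 8, and 3 members (Hist2h2aa2, Hist1h2bq and Hist1h2br) had none. The 9 include Hist2h2bb, although it lies inside Gm42743. Of those 8 members, 7 were under 10 RPKM, and the exception was the H3 gene Hist1h3h at 351 RPKM. How reads that map to several copies were handled is not given in the sources used here, so values of members with few unique stretches are uncertain.

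**Figure D1:**
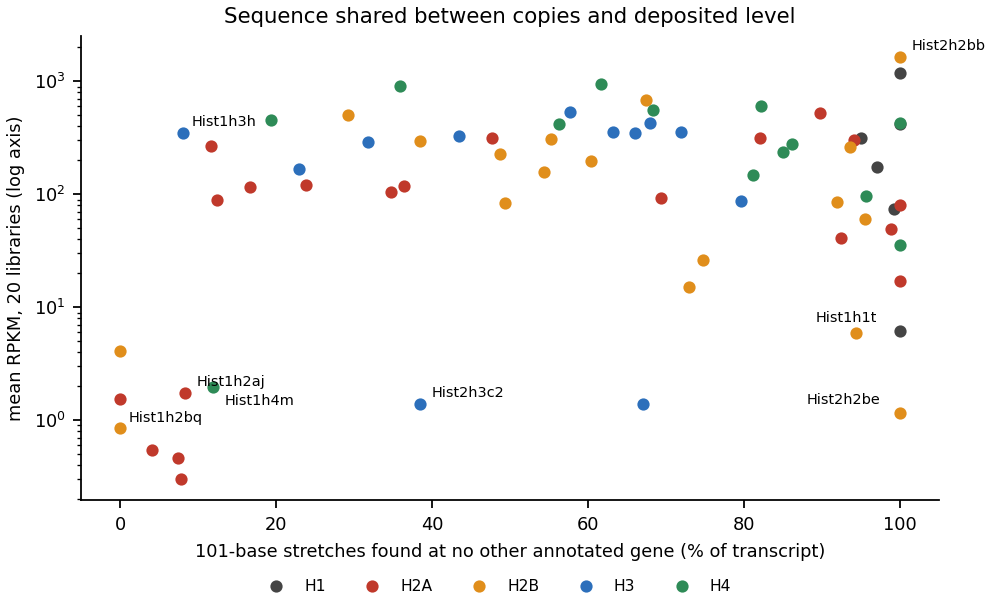
Each point is 1 of 69 histone genes. The x axis gives the percentage of its 101-base stretches found at no other annotated gene, leaving aside genes that overlap its own locus. The y axis gives its mean RPKM over 20 libraries on a log scale, and colour gives the class. Of the 8 genes under 10% unique, 7 lie under 10 RPKM and Hist1h3h lies at 351.

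Between the cell types, the family's summed level was lower in iPSM. Summed over the 69 genes, CPM normalised by TMM (trimmed mean of M values, a factor that corrects the library total) was 14276 ± 1019 (SD, n = 4 untreated clones) in ESC and 9949 ± 2600 in iPSM. From here on, CPM values of single histone genes and of histone sums are normalised by TMM unless stated otherwise. Without TMM the sums of the same clones were closer, at 13135 ± 902 in ESC and 10498 ± 2206 in iPSM. With TMM, over all 10 libraries, the lowest, median and highest sums were 11239, 14324 and 17621 in ESC and 7576, 9171 and 13607 in iPSM. The 2 ranges overlap: untreated iPSM clone 20, at 13607, and the iPSM control with dox, at 12863, lay above the lowest ESC libraries. As a share of all counts, histone genes took 1.06 to 1.64% in ESC and 0.87 to 1.36% in iPSM. The sum carries no test, as the members were chosen with earlier results known.

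**Figure D2:**
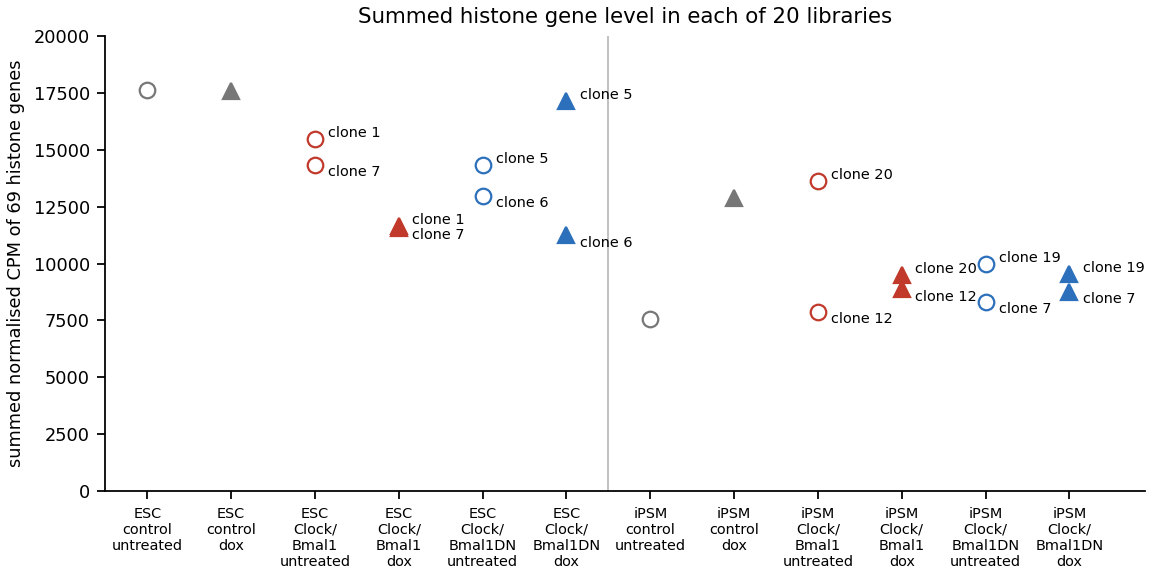
Each point is 1 of 20 libraries, grouped by cell type, line and dox on the x axis. The y axis gives the summed normalised CPM of the 69 histone genes, with open circles for untreated and filled triangles for dox. ESC libraries run from 11239 to 17621 and iPSM libraries from 7576 to 13607.

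Gene by gene, in edgeR's quasi-likelihood test of the 4 untreated iPSM clones against the 4 untreated ESC clones, 3 members rose, 40 fell and 26 did not pass at an adjusted p of 0.05. The share called, 62.3%, was close to that of all transcripts tested (60%, or 16021 of 26689). By direction, 31.3% of all transcripts rose and 28.8% fell. The members' median log2 fold change was -0.55, against 0.05 for all transcripts. Scaling by library totals without TMM, tried after the data were seen, moved the median of all transcripts by 0.20 to 0.26, and gave 7 members that rose and 31 that fell. Over all transcripts the split of rises to falls was then 9811 to 6403, against 8343 to 7678 with TMM. Leaving out 1 untreated clone at a time gave 31 to 48 falls and 2 to 6 rises. The 6 rises came without iPSM clone 12.

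**Figure D3:**
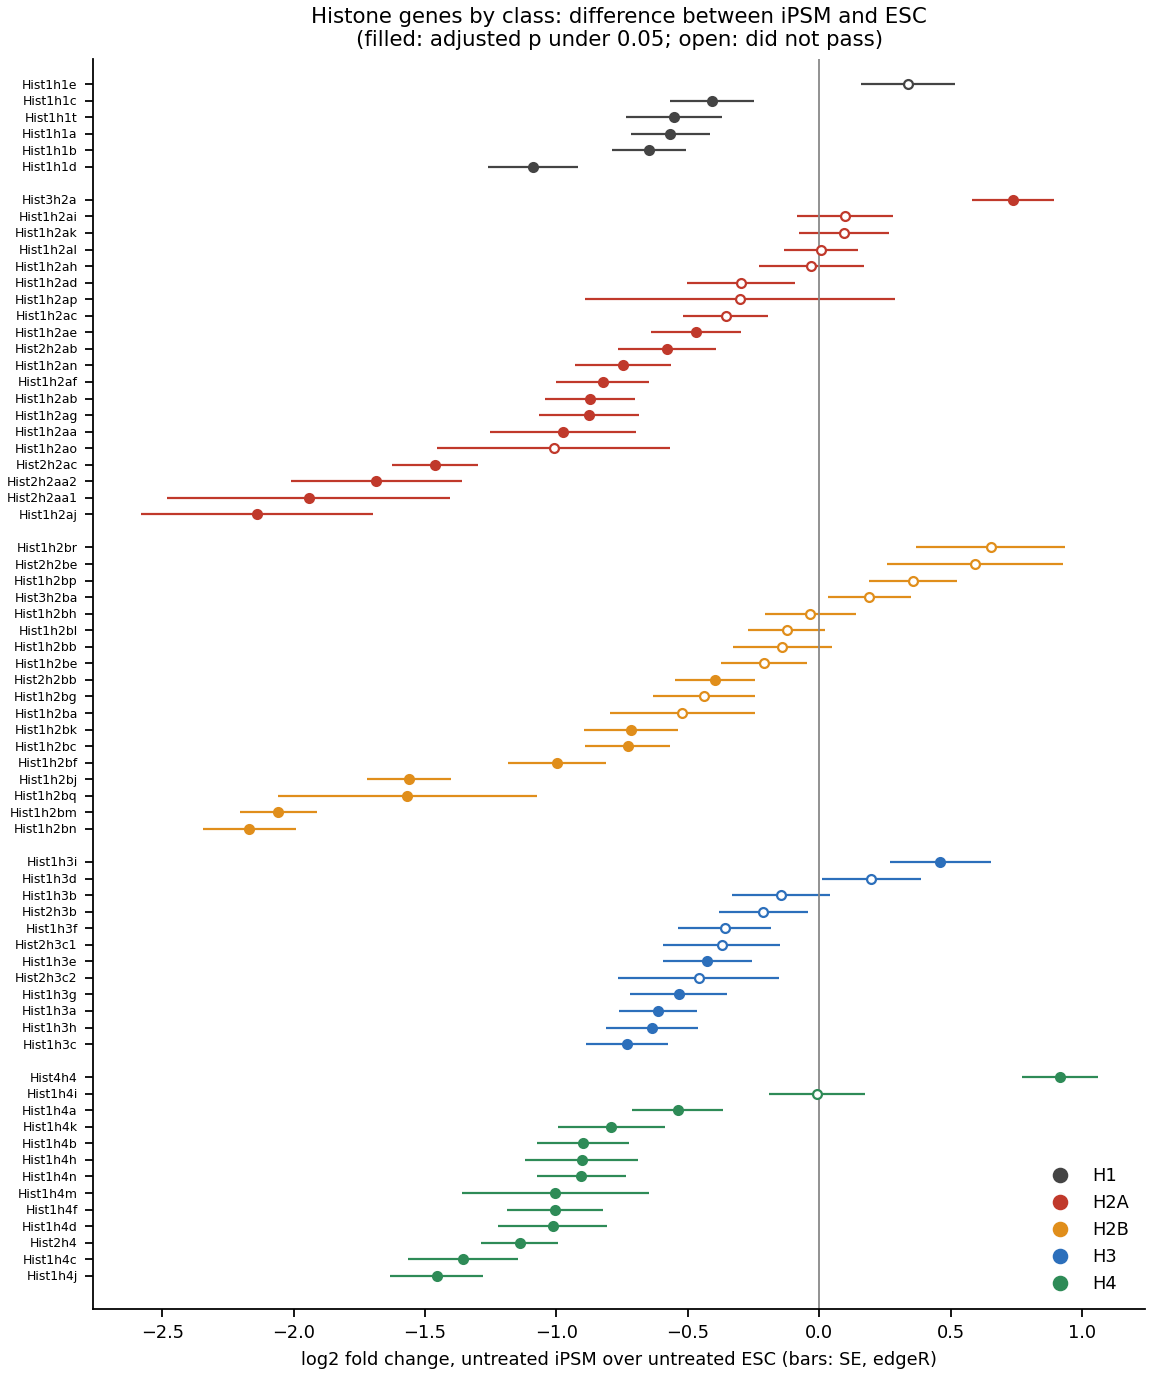
Each row is a histone gene, grouped by class and sorted by value. The x axis gives the log2 fold change of untreated iPSM over untreated ESC from edgeR, with bars for the SE, and filled points passed at an adjusted p of 0.05. H4 genes sit furthest left as a class, with a median of -0.90, and Hist4h4 furthest right.

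Linker histone H1 genes, whose products bind the DNA between nucleosomes, fell in 5 of 6 cases. Hist1h1d fell most, from 784 ± 37.3 CPM (SD, n = 4 clones) in ESC to 369 ± 90.7 CPM in iPSM, a log2 change of -1.09 ± 0.17 (SE, edgeR adjusted p = 5.17e-05). All 10 iPSM libraries lay below all 10 ESC libraries for it. Hist1h1e did not pass, at 291 ± 26.8 and 367 ± 72.7 CPM (log2 0.34 ± 0.18, adjusted p = 0.113), and it overlaps Hist1h2be by 496 bases. As a share of H1 counts, Hist1h1d was 22.9 to 26.8% in ESC and 16.4 to 17.8% in iPSM, and Hist1h1e was 7.70 to 12.4% and 15.5 to 20.8%. Neither pair of ranges overlaps, so the make-up of H1 transcripts differed between the libraries of the cell types. Hist1h1a, the most abundant, fell from 1105 ± 81.4 to 749.7 ± 202 CPM (log2 -0.57 ± 0.15, adjusted p = 0.00423), and Hist1h1b fell by 0.65 on the log2 scale (adjusted p = 0.000989). Hist1h1c, known for a polyadenylated form, fell by 0.41 (adjusted p = 0.0373), a call lost in 7 of the 8 fits that leave out a clone (adjusted p up to 0.163). Hist1h1t, the testis H1, fell by 0.55 (adjusted p = 0.0168) from a low level, a call lost in 3 of the 8 fits (adjusted p up to 0.0700).

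H2A and H2B pair as a dimer on the outer faces of the nucleosome. Of 20 H2A genes, 1 rose, 11 fell and 8 did not pass (median log2 -0.66). Of 18 H2B genes, 0 rose, 8 fell and 10 did not pass (median -0.42), and H2B held the furthest falls among well-measured members. Hist1h2bm stood at 283 and 286 CPM in the ESC control without and with dox, 275 and 191 in clone 1, 231 and 192 in clone 7, 241 and 277 in clone 5, and 185 and 199.6 in clone 6. In iPSM it stood at 36.4 and 65.2 CPM in the control, 48.0 and 55.0 in clone 12, 66.2 and 56.4 in clone 20, 48.5 and 54.2 in clone 7, and 60.7 and 53.5 in clone 19. Every iPSM library was thus below every ESC library, with the lowest ESC value at 185 and the highest iPSM value at 66.2. The change was -2.06 ± 0.15 on the log2 scale, or 4.16-fold lower (edgeR adjusted p = 2.18e-08), and 93.6% of its 101-base stretches are unique.

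Hist1h2bn fell from 149 ± 23.1 to 33.0 ± 6.32 CPM (SD, n = 4 clones), by 2.17 ± 0.18 on the log2 scale or 4.49-fold (adjusted p = 8.59e-08). Its ESC libraries ranged from 105 to 201 CPM and its iPSM libraries from 27.0 to 42.0 CPM. It has 48.8% unique stretches and shares 130 of its 281 stretches with each of 3 other H2B genes, Hist1h2bk, Hist1h2bq and Hist1h2br. Hist1h2bj, another H2B gene, fell from 141 ± 17.6 to 48.0 ± 12.5 CPM (log2 -1.56 ± 0.16, adjusted p = 8.08e-07). Hist2h2ac, an H2A gene on chromosome 3, fell from 244 ± 11.1 to 88.9 ± 23.9 CPM (log2 -1.46 ± 0.16, adjusted p = 1.83e-06). These 4 genes are among 10 members for which all 10 iPSM libraries were lower than all 10 ESC libraries, or 14.5% of members against 15.7% of all transcripts. The others are Hist1h1d, Hist1h2ab, Hist1h4c, Hist1h4j, Hist1h4n and Hist2h4. No member had all 10 iPSM libraries higher, against 16.5% of all transcripts.

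Large falls at low level included those of Hist1h2aj (1.20 to 0.27 CPM, log2 -2.14 ± 0.44, adjusted p = 0.000627), an H2A copy listed as a pseudogene, with 8.33% unique stretches, and Hist2h2aa2 (1.23 to 0.38 CPM, log2 -1.69 ± 0.33, adjusted p = 0.000366), with none. In the other direction, Hist3h2a, an H2A gene on chromosome 11 outside the large clusters, rose from 131 ± 5.00 to 219 ± 59.7 CPM (log2 0.74 ± 0.16, adjusted p = 0.000819). All of its stretches are unique. Its neighbour Hist3h2ba, an H2B gene, did not pass, at 34.7 ± 3.92 and 39.7 ± 9.61 CPM (log2 0.19 ± 0.16, adjusted p = 0.313). Hist1h2bc and Hist1h2bk fell by 0.73 and 0.72 (adjusted p = 0.00114 and 0.00286). Hist1h2ak (log2 0.09 ± 0.17), Hist1h2al (0.01 ± 0.14), Hist1h2bb (-0.14 ± 0.19), Hist1h2ba (-0.52 ± 0.28) and Hist2h2be (0.59 ± 0.34) did not pass. Hist2h2bb fell by 0.40 ± 0.15 (adjusted p = 0.0342), lost in 6 of 8 fits that leave out a clone. Hist1h2aa, a testis H2A, fell by 0.98 (adjusted p = 0.00705) from 9.71 to 4.99 CPM.

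H3 and H4 form the core tetramer. Of 12 H3 genes, 1 rose, 5 fell and 6 did not pass (median log2 -0.40). Hist1h3a fell from 282 ± 28.7 to 185 ± 45.9 CPM (log2 -0.61 ± 0.15, adjusted p = 0.00229). Hist1h3g and Hist1h3e fell by 0.54 (adjusted p = 0.0202) and 0.43 (adjusted p = 0.0394), calls lost in 4 and 5 of the 8 fits without a clone. The single rise, Hist1h3i (log2 0.46 ± 0.19, adjusted p = 0.0497), was lost in 7 of the 8, with adjusted p from 0.00391 to 0.372.

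H4 fell most as a class: 11 of 13 genes fell, 1 rose and 1 did not pass, with a median of -0.90. Hist1h4j fell from 175 ± 16.001 to 63.8 ± 16.9 CPM (log2 -1.45 ± 0.18, adjusted p = 4.59e-06). Hist1h4c fell from 353 ± 27.1 to 138 ± 40.6 CPM (log2 -1.36 ± 0.21, adjusted p = 4.46e-05). The abundant Hist1h4h, Hist1h4k and Hist1h4f fell by 0.90, 0.79 and 1.01 (adjusted p = 0.00194, 0.00337 and 0.000209). Over all 10 libraries H4 made up 23.1 to 27.7% of the summed histone CPM in ESC and 22.9 to 25.3% in iPSM, so these ranges overlap. Among the untreated clones alone the ranges were 26.7 to 27.7% and 22.9 to 25.3%, which do not overlap.

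Hist4h4, which lies alone on chromosome 6, went the other way. In ESC it stood at 248 and 256 CPM in the control without and with dox, 235 and 166 in clone 1, 209 and 173 in clone 7, 196 and 252 in clone 5, and 173 and 179 in clone 6. In iPSM the control had 186 and 389.6 CPM, clone 12 had 319 and 343, clone 20 had 435 and 261, clone 7 had 359 and 341, and clone 19 had 415 and 419. The untreated iPSM control lay within the ESC range and the other 9 iPSM libraries lay above it. The rise was 0.91 ± 0.14 on the log2 scale, or 1.89-fold (adjusted p = 5.62e-05), and it passed in every fit that leaves out a clone (adjusted p up to 0.000505). Its transcript model runs 2445 bases past the stem-loop printed above, which has the same 16 bases as that of Hist1h4c.

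**Figure D4:**
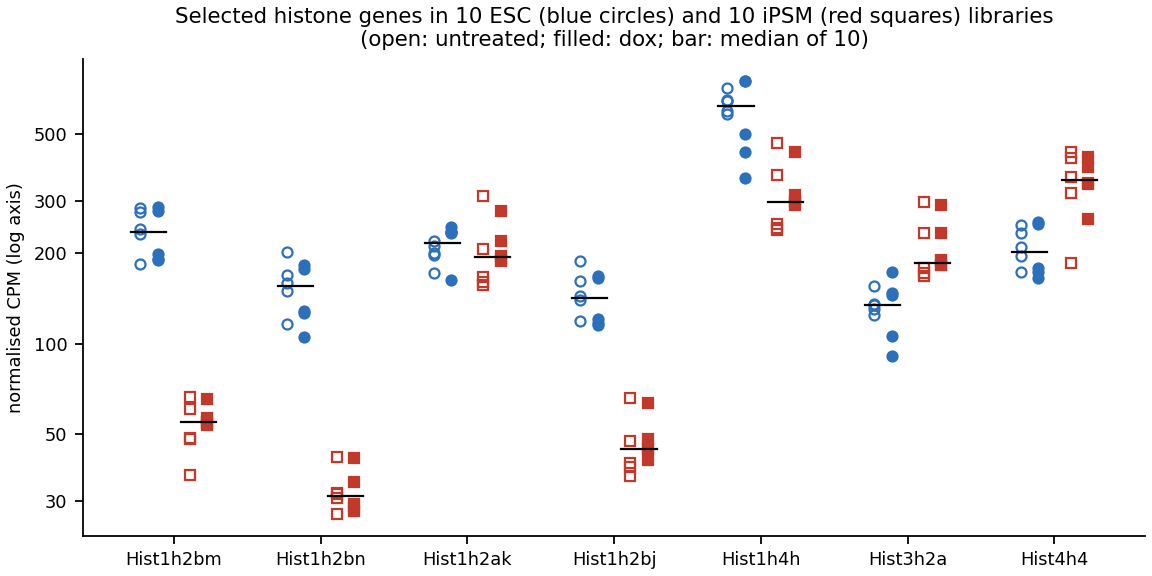
The y axis gives normalised CPM on a log scale for 7 histone genes named on the x axis. Blue circles are 10 ESC libraries and red squares 10 iPSM libraries, open when untreated and filled with dox, and bars are medians of 10. Hist1h2bm, Hist1h2bn and Hist1h2bj do not overlap between the cell types, while Hist1h2ak does.

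Length past the stem-loop was compared as a feature that the choice of members did not use. Of 23 members whose model ends at most 100 bases past it, 0 rose and 17 fell (median log2 -0.90). Of 23 whose model runs further, 2 rose and 10 fell (median -0.41), and of the 23 with no match, 1 rose and 13 fell (median -0.57). These are descriptions with no test of their difference. Among members with 50% or more unique stretches, 2 rose and 26 of 43 fell (median -0.54). The octamer's carriers (13 members) had 1 rise and 7 falls. The H2A and H2B genes whose window was found and lacks the octamer (21 members) had 0 rises and 10 falls.

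Many H2A and H2B genes stand head to head and share the stretch between their start sites, and 13 such pairs of members were found, with 176 to 306 bases between the starts. The members of a pair did not always share a change. Hist1h2ak and Hist1h2bn, 296 bases apart, had log2 changes of 0.09 and -2.17. This pair was picked out after its values were seen and carries no test. The count of Hist1h2bn per count of Hist1h2ak was 0.449 to 0.916 (median 0.758) in the 10 ESC libraries and 0.130 to 0.200 (median 0.154) in the 10 iPSM libraries, and these ranges do not overlap. Both genes of the pair Hist1h2ag and Hist1h2bj fell (-0.88 and -1.56), whereas Hist2h2ac fell by 1.46 beside Hist2h2be at 0.59, which did not pass.

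Other genes of the pathway were read from chosen lists, again as counts with no test of the list. Beside these counts, 31.3% of all transcripts rose and 28.8% fell in untreated iPSM against untreated ESC. Of 31 genes of histone mRNA 3′ end processing and transcription, 8 rose and 10 fell (median log2 -0.11, which turned to 0.09 without TMM). Zfp473, a U7 snRNP-associated zinc finger protein, fell by 2.12 and Lsm10, a U7 core protein, by 1.31, while Dis3l2, an exonuclease, rose by 2.05 and Snrpd3 by 1.23. Slbp itself did not pass (-0.22 ± 0.13, adjusted p = 0.153). Of 12 replication-independent histones, which are also made outside S phase and mostly carry tails, 5 rose and 3 fell (median 0.08). H2afy2 (macroH2A2) rose by 2.66 and H1f0 by 1.76, and H2afj fell by 1.42 and H2afz by 0.83. Of 23 histone chaperones, 9 rose and 3 fell (median 0.16): Ubn1 and Ubn2, partners of HIRA, rose by 1.62 and 1.58, and Daxx and Ipo4 fell by 2.00 and 1.25.

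Cell cycle genes fell more often than they rose, with TMM and without it. With TMM, 31.3% of all transcripts rose and 28.8% fell. Without TMM, 6 genes of G1/S and DNA replication rose and 16 fell, and 4 G2/M genes rose and 12 fell. Over all transcripts, 9811 then rose and 6403 fell. The counts that follow are with TMM. Of 33 genes of G1/S and DNA replication 4 rose and 18 fell (median log2 -0.45), among them Ccne1 (cyclin E1, -2.14) and Mcm2 (a subunit of the replicative helicase, -1.53), while E2f3 rose by 1.43 and Pola1 by 0.90. Of 20 G2/M genes 3 rose and 13 fell (median -0.53), with Cdc20 at -1.99 and Aurkb at -1.19, and Cenpe and Mki67 rose by 1.09 and 1.04. Of 11 rows for other RNAs without a poly(A) tail, 0 rose and 5 fell (median -0.87), including Terc (telomerase RNA, -1.82) and Rn7s6 (-1.73). Their summed level was 22946 to 40182 CPM in ESC and 11874 to 28861 CPM in iPSM. The part of these differences in the histone result was not tested.

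The study's main question was what induced Clock and Bmal1 change, and the clock genes served as a check of the labels: 6 of 6, the induced Clock and Arntl (Bmal1) among them, rose with dox in the Clock/Bmal1 clones of both cell types. In the ClockBmal1DN clones 1 of 6 rose in each cell type. In ESC after 6 hours, 0 of 69 histone genes rose or fell with edgeR, where 0.422% of 22500 transcripts were called. In simulated data for this comparison the fit recovered 7.14% of 2-fold changes, put in transcripts drawn at random from all that were fitted. Recovery among the histone genes was not measured, and 0 calls does not mean no change. The members leaned one way, with 67 of 69 below 0 and 6 at an unadjusted edgeR p under 0.05. Their median log2 fold change was -0.41, against -0.01 for all transcripts. Members moved together within a library, so they are not 69 independent values. With dox, 67 of 69 were higher in the iPSM control and 65 of 69 in ESC ClockBmal1DN clone 5, each with 1 library per state. In the ESC control 34 were lower and 35 higher. The summed level went from 15474 to 11650 CPM in clone 1 and from 14322 to 11568 CPM in clone 7, whereas the ESC control had 17621 and 17604 CPM. In both clones 55 of 69 members were lower with dox, against 32.4% of all transcripts, and 1 was higher in both, against 32.8%. Class medians ran from -0.30 for H3 to -0.43 for H4.

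Hist3h2ba came nearest to the threshold. It stood at 39.0 CPM untreated and 18.3 with dox in clone 1, and at 31.3 and 18.7 in clone 7, against 57.4 and 53.2 in the control. The change was -0.95 ± 0.19 on the log2 scale (edgeR adjusted p = 0.104). With DESeq2 it passed (-0.93, adjusted p = 0.0159), and likewise with no filter on low counts (-0.95, adjusted p = 0.0202), while with clone as a block the adjusted p was 0.0812. Other unadjusted p under 0.05 were those of Hist3h2a (-0.48), Hist2h2bb (-0.48), Hist1h2ba (-1.01), Hist1h2ae (-0.53) and Hist1h2al (-0.42). The G1/S list had a median of -0.21 in the same comparison and the other RNAs without a tail one of -0.46, and no gene of either list passed. Their part in the histone values was not tested.

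With ClockBmal1DN in ESC, 0 of 69 members were called (0.00444% of all transcripts), and the median was 0.09, with 2 at an unadjusted p under 0.05. DESeq2 also called 0. The 2 clones went apart, from 14326 to 17141 CPM in clone 5 and from 12981 to 11239 CPM in clone 6. Lower in both clones were 4 members, against 20.7% of all transcripts, and higher in both were 28, against 24.2%. Set against each other, the dox effects of the 2 constructs gave 0 calls among members (0.0578% of all), a median of -0.44 and 5 members at an unadjusted p under 0.05. DESeq2 called 0 there too, and leaving out 1 library at a time moved this median between -0.67 and -0.12. Feeder markers differed in the same libraries: their sum went from 488 to 65.9 CPM with dox in clone 6 and from 96.0 to 98.7 CPM in clone 5. Their median log2 change was -1.77 for ClockBmal1DN, -0.07 for Clock/Bmal1 and 1.70 for the difference, with 0 of 9 passing in each. Without the untreated library of clone 6, the histone medians were 0.01 for ClockBmal1DN and -0.38 for the difference. Untreated Clock/Bmal1 against untreated ClockBmal1DN clones gave 0 calls in ESC (0.00889% of all) and a median of 0.14, with 0 at an unadjusted p under 0.05 and 0 called by DESeq2.

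In iPSM after 2 hours, Hist1h2ao and Hist1h2ap were too low to be tested, and 0 of the other 67 members were called for Clock/Bmal1, where 1.02% of 24805 transcripts were. None reached an unadjusted p of 0.05, DESeq2 called 0, and the median was -0.23, with clones that went opposite ways. Summed CPM went from 7881 to 8862 in clone 12 and from 13607 to 9479 in clone 20. With dox, 7 of 69 members were lower in clone 12 and 66 of 69 in clone 20. Lower in both clones were 6 of 67, against 21.5% of all transcripts, and higher in both were 3, against 18%. The result moved with untreated clone 12 and untreated clone 20: without the first the median was -0.55, and without the second it was 0.24.

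In iPSM the ClockBmal1DN clones differed in induction. Arntl went from 39.0 to 828 CPM in clone 7 and from 61.9 to 143 CPM in clone 19, and Clock from 105 to 954 and from 101 to 986 CPM. There, 0 of 67 members were called (0.00403% of all), 0 had an unadjusted p under 0.05, 0 were called by DESeq2, and the median was -0.01. Lower in both clones were 7 of 67, against 23.7% of all transcripts, and higher in both were 13, against 22.9%. The difference of the 2 dox effects gave 0 calls (0.278% of all) with a median of -0.23, and the untreated Clock/Bmal1 against ClockBmal1DN clones gave 0 (0% of all) with a median of 0.26. In each of these 2 comparisons, 0 members had an unadjusted p under 0.05 and DESeq2 called 0. Leaving out 1 library at a time moved the median of the untreated clone comparison between -0.22 and 0.60. The iPSM control line went from 7576 to 12863 CPM with dox, with 67 of 69 members higher (median 0.79). Without TMM the line went from 9377 to 13031 CPM, a smaller rise. The TMM factors of its libraries were 1.24 untreated and 1.01 with dox. It has 1 library per state, and its untreated library is the one that stood apart in features with reads.

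**Figure D5:**
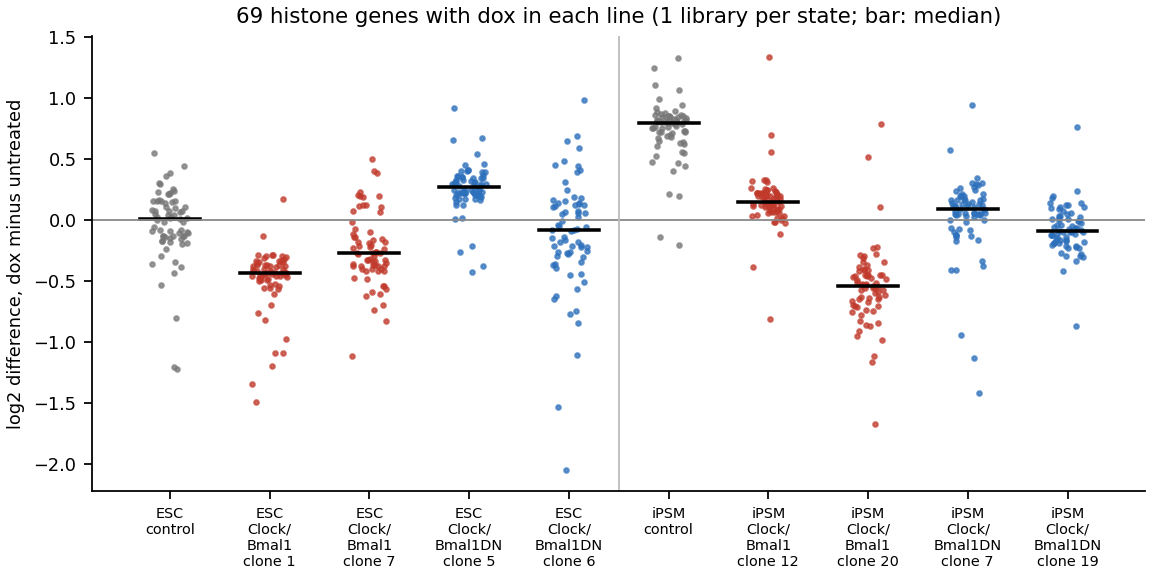
Each point is 1 of 69 histone genes, as the log2 difference of its dox library minus its untreated library, for each of 10 lines on the x axis, and bars are medians. Medians lie at -0.43 and -0.27 in ESC Clock/Bmal1 clones 1 and 7, at 0.15 and -0.54 in iPSM clones 12 and 20, and at 0.79 in the iPSM control.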

How the data were processed

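Per the submitters' processing notes, bcl2fastq, STAR 2.7.2a and HOMER were used with mm10. The authors deposited estimated counts of reads over gene bodies, not always whole, and RPKM values beside them, per the file headers. Library totals in the tables were 38.2 to 57.3 M. Counts were rounded to whole numbers and fitted with edgeR 4.0.16 (limma 3.58.1, R 4.3.3): scaling by TMM, the default low-count filter (filterByExpr) and the quasi-likelihood F test (glmQLFit, glmQLFTest) with Benjamini-Hochberg adjustment over all transcripts tested and calls at an adjusted p under 0.05. Dox and clone comparisons used the 10 libraries of a cell type as 6 groups (4 residual degrees of freedom). The comparison of iPSM against ESC used all 20 as 12 groups (8 residual degrees of freedom). Neither fit had a term for clone. The SE is the log2 change over the square root of F. DESeq2 1.42.0, other scalings, no filter, a clone block and leaving out each clone were alternatives. Figures used matplotlib 3.10.9. Scripts were tested on simulated data with known changes, put in transcripts drawn at random from all fitted and with libraries drawn independently. For Clock/Bmal1 dox in ESC the fit recovered 7.14% of 2-fold and 52.1% of 4-fold changes. For iPSM against ESC it recovered 37.1% and 73.4%. A comparison with 0 calls therefore does not show that nothing changed.

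The members and gene lists were chosen with earlier results of these data known. Named members are 9 chosen for polyadenylated forms, position or testis origin, the 3 highest by RPKM in each class, members that passed in a dox or clone comparison, and up to 5 of the largest rises and falls that passed in iPSM against ESC with a mean of at least 1 CPM in one cell type. Others are named where a count or a comparison needed them, after their values were seen. Lists give up to 2 genes in each direction. Untreated and dox libraries with one number are the same clone per the labels. Their deviations from group means correlated at 0.61 (ESC Clock/Bmal1), -0.08 (ESC ClockBmal1DN), 0.26 and 0.24 (iPSM) over 20255 transcripts. Sequences are from GENCODE vM21 and RefSeq (GRCm38.p6).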

Additional observations from a re-analysis of the deposited data

Results flagged for a closer look

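Of 150 checks for a sample far from the others among the 4 untreated clones of a cell type, over members and summed levels, 2 (1.33%) met Dixon's criterion, fewer than the 1 in 20 that chance gives. Hist1h2bg stood at 182 CPM in untreated ESC ClockBmal1DN clone 6, below the other 3 clones, and this library also had the highest sum of feeder markers, 488 CPM. Hist1h2ag stood at 60.6 CPM in untreated iPSM Clock/Bmal1 clone 20, above the others.

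For 3 of 69 members the ClockBmal1DN dox difference had one sign in both ESC clones and the opposite sign in both iPSM clones, and this difference was not tested. The mean log2 difference in ESC minus that in iPSM was -0.86 for Hist2h2aa2, 1.21 for Hist1h2ap and 1.26 for Hist1h2br. Among members tested in both cell types 2 of 67 did so, against 9.26% of all 20816 transcripts. All 3 have under 10% unique 101-base stretches and lie under 10 RPKM. For Clock/Bmal1, 0 members did so, against 10.4% of all transcripts.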

How the results depend on the processing

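With dox in the Clock/Bmal1 ESC clones, 1 member fell with DESeq2 and 1 with no filter, Hist3h2ba in both. With clone as a replicate block, 0 members were called in the dox comparisons of either cell type and medians were -0.41 (Clock/Bmal1 ESC) and -0.17 (Clock/Bmal1 iPSM). Leaving out a library, falls for Clock/Bmal1 in iPSM ranged from 0 to 20 and the median from -0.55 to 0.24, and rises of untreated Clock/Bmal1 over ClockBmal1DN clones in iPSM ranged from 0 to 36. In iPSM against ESC, falls ranged from 31 to 48, rises from 2 to 6 and the median from -0.82 to -0.42. Library totals without TMM gave 7 rises. Without the untreated iPSM control and clone 20, also chosen after seeing the data, 48 fell. Signs reversed, none with a call, for Hist1h2al (-0.0113 with DESeq2, -0.0113 with the RLE scaling, -0.0565 unfiltered, -0.183 without the control and clone 20, -0.182 to 0.156 leaving out a clone), Hist1h2bb (0.0576 without TMM, -0.401 to 0.0507 leaving out a clone) and Hist1h2ak (-0.167 without the control and clone 20, -0.166 to 0.283 leaving out a clone). Of the other values for named genes, 395 kept direction and call, 41 lost a call and 5 gained one. The cause was not tested. Where a fit leaves 1 clone in a group, it is assumed to vary like the other groups. Depth limits most members under 10 RPKM: 12 of the 13 had 2 to 408 counts per library, and Hist1h2be, with its long gene body, had 6728 to 14349.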

Other observations

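The pseudogene row left out by the rule, Hist3h2bb-ps, had 4.68 to 17.4 normalised CPM in ESC (median 11.1) and 7.00 to 14.9 in iPSM (median 10.04), and these ranges overlap. Against the untreated control library, the untreated ESC clones had lower histone levels, with 55, 60, 61 and 63 of 69 members lower in clones 1, 7, 5 and 6 and median log2 differences of -0.15, -0.29, -0.27 and -0.45. In iPSM 39, 65, 48 and 66 members were higher in clones 12, 20, 7 and 19, with medians of 0.05, 0.81, 0.08 and 0.37. Without TMM, the untreated iPSM control summed to 9377 CPM, above clone 12 at 8723 and clone 7 at 9094. Clone 20 at 13576 and clone 19 at 10599 were above this control. Each control is 1 library, so these values carry no test.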
